A study of Mus musculus with 189 samples.

Results

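The 4-cell and 8-cell samples made up 39 of the 189 samples of the series and came from 13 embryos. The 4-cell stage was represented by 12 samples from 6 embryos and the 8-cell stage by 27 samples from 7 embryos, chosen by the stage in their labels. At each stage 3 embryos were assayed whole. The other 3 4-cell embryos gave 9 single blastomeres, the cells of the cleaving embryo, and the other 4 8-cell embryos gave 24. Embryos of both stages were the unmanipulated offspring of superovulated F1 females (C57BL/6 x DBA/2) and C57BL6 males. They were cultured in KSOMaa medium in low oxygen, and blastomeres were separated with trypsin after removal of the zona. Each sample was lysed in the reverse transcription mix, amplified with the pooled primers of 192 assays for 18 cycles and quantified by qPCR on a microfluidic chip. The panel was built around chromatin modifiers and markers of the first cell lineages, and the 156 assays that passed the quality control of the authors were compared here. The samples carry no genetic alteration or treatment, and stage was the only labelled difference between the groups.

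As background, the mouse embryo divides without growth after fertilization, and transcripts stored in the oocyte are broken down while the embryonic genome is switched on. Between the 4-cell and the 8-cell stage the cells complete the third cleavage, after which the embryo compacts and the cells acquire an apical side. The first lineage decisions, between the outer trophectoderm and the inner cell mass and then between epiblast and primitive endoderm, follow at later cleavages, with Cdx2 and Gata3, Nanog and Gata6 among the factors known to act in them. Polycomb complexes and histone methyltransferases and demethylases, many of them supplied by the oocyte, write and remove the marks that these lineages come to differ in.

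The level of a gene in a sample was taken as 30 minus its threshold cycle (Ct), minus the mean of the same quantity over the control genes Hnrnpr, Ssu72 and Ube2e1. It is a log2 level, so that a difference of 1 is 2-fold if every cycle doubles the product. Levels of different genes are not set against each other, since assays differ in efficiency and length. Blastomeres of 1 embryo were averaged first, and the embryo was the replicate. An undetected transcript was recorded at a Ct of 30, which placed it between -13.8 and -16.1 in the 4-cell samples and between -13.9 and -17.5 in the 8-cell samples. Such values are limits and not levels, and 12.4% of the 6084 values of both stages were of this kind. The mean Ct of the control genes ranged from 13.9 to 16.2 in 4-cell blastomeres and from 13.6 to 16.1 in 8-cell blastomeres, and 19 to 24 and 16 to 27 genes were undetected in them. Whole embryos had lower control Ct, from 13.9 to 14.5 at the 4-cell and from 12.5 to 13.9 at the 8-cell stage, with 10 to 13 and 7 to 10 undetected genes. qPCR gives no read depth, and the number of embryos limits the precision. The labels do not say which embryos shared a mother or a day of collection. The p-values thus measure the spread between the oocytes and embryos of the fit, not that between mothers or days.

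Of the 156 genes, 77 differed between the stages past an adjusted p of 0.05, which is 49.4% of those tested. At the 8-cell stage 21 genes were higher (13.5%) and 56 were lower (35.9%). The median difference over all 156 genes was -0.51, counted as 8-cell minus 4-cell throughout. For 43 genes (27.6%) the values of the 6 and the 7 embryos did not overlap, 12 of them (7.69%) being higher and 31 (19.9%) lower at the 8-cell stage. Among the 104 genes detected in all 39 samples, where no limit enters, 7 were higher and 42 lower. The fit drew on 58 oocytes and embryos of 8 stages for its estimate of the spread, and 21 of the 189 samples did not enter it. These were 10 samples of embryonic stem cell RNA, 8 late whole embryos or isolated parts of them, and 3 samples outside the sample list of the study, none of them from the 4-cell or 8-cell stage. With the embryos of these 2 stages alone it also called 77 genes, of which 64 were shared. The balance of rises and falls depended on the scale. When levels were set against the median of the genes detected in every sample of both stages, the median difference moved to 0.04, and 35 genes were called higher and 36 lower. Without any normalization 18 were called higher and 24 lower.

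**Figure D1:**
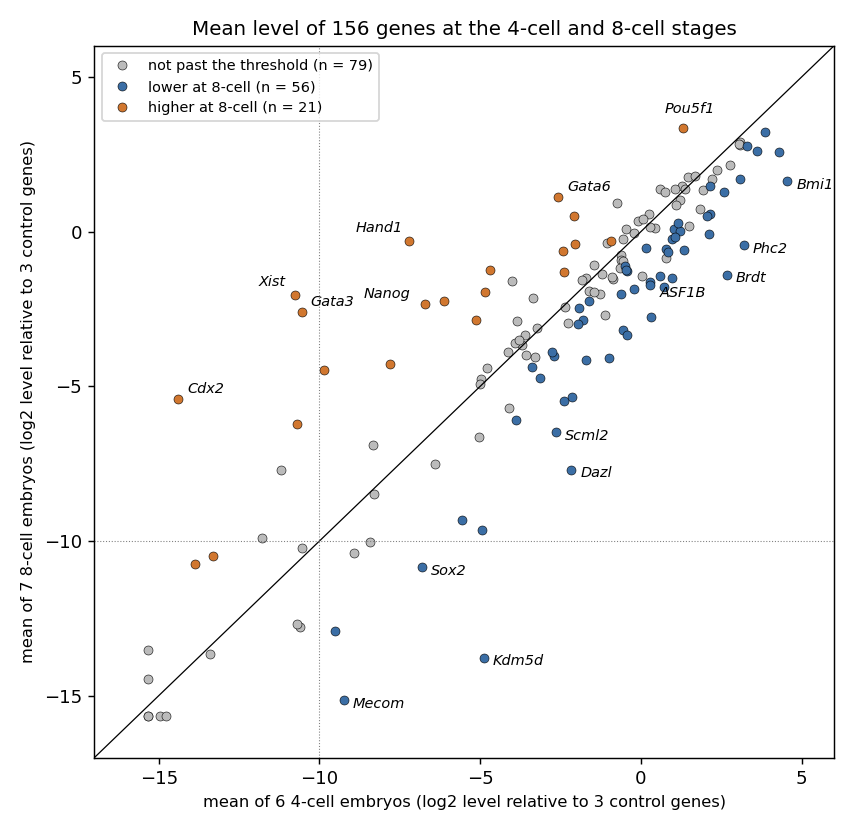
Mean level of each of the 156 genes in the 6 4-cell embryos (horizontal axis) and the 7 8-cell embryos (vertical axis), as log2 relative to 3 control genes. The solid line marks equal levels and the dotted lines the level of -10, to which lower values were raised in an alternative; 56 genes lie below the line past the threshold and 21 above it, with Cdx2, Xist and Gata3 farthest above.

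The Polycomb gene Bmi1, the testis bromodomain gene Brdt and the histone chaperone gene ASF1B were detected in all 39 samples and fell between the stages. Bmi1 encodes a subunit of Polycomb repressive complex 1 (PRC1). Its level in the 4-cell embryos ran from 4.29 through a median of 4.56 to 4.89, and in the 8-cell embryos from 0.67 through 1.59 to 2.61. The lowest 4-cell embryo was thus above the highest 8-cell embryo, and the spread within the 4-cell stage was small. The difference was -2.94 (SE 0.25, adjusted p = 5.18e-14), which is 7.66-fold. Brdt encodes a bromodomain protein that binds acetylated histones in male germ cells. It ran from 1.96 through 2.58 to 3.405 at the 4-cell and from -2.50 through -1.38 to -0.11 at the 8-cell stage. The groups did not overlap, and the difference of -4.05 (SE 0.36, adjusted p = 1.36e-13), or 16.6-fold, was the largest fall among the genes detected in every sample. ASF1B, which hands histones H3 and H4 to other chaperones during replication, ran from -0.22 through 0.10 to 1.31 and then from -2.14 through -1.61 to -0.94. These groups did not overlap either, with a difference of -1.93 (SE 0.26, adjusted p = 1.63e-08). Its paralog ASF1A was at -0.46 ± 0.54 (SD, n = 6) and 0.07 ± 0.44 (SD, n = 7), which did not pass the test (adjusted p = 0.148).

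The blastomere values of these genes, which were averaged into the embryo levels above, are given as a description. Cells of 1 embryo are not independent. In the 9 4-cell blastomeres, the embryo means of Bmi1 were 4.31, 4.71 and 4.55, with an SD of at most 0.32 among the cells of 1 embryo. In the 4 dissociated 8-cell embryos, they were 0.67, 1.85, 1.59 and 1.53, with an SD among cells of 0.23 to 0.69. The highest of the 24 8-cell blastomeres reached 2.45, below the lowest 4-cell blastomere at 4.22. Brdt behaved likewise, with the lowest 4-cell blastomere at 1.83 and the highest 8-cell blastomere at -0.14. ASF1B overlapped between cells, since the lowest 4-cell blastomere was at -1.07 and the highest 8-cell blastomere at -0.68.

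The promoter windows of Bmi1 and Brdt are shown as the regulatory sequence next to the start sites of these falling genes. They are taken from RefSeq on GRCm38.p6 and hold the 250 bases before and the 50 bases after the annotated start, written 5′ to 3′ on the strand of the gene. Both lie on the plus strand, Bmi1 at chr2:18676768-18677067 and Brdt at chr5:107330944-107331243. Capitals mark matches on either strand to GGAATG, the core bound by TEAD factors, to CCAAT, the CCAAT box, and to TATAAA, the TATA box. The Bmi1 window held 1 GGAATG and the Brdt window 1 CCAAT.
Bmi1: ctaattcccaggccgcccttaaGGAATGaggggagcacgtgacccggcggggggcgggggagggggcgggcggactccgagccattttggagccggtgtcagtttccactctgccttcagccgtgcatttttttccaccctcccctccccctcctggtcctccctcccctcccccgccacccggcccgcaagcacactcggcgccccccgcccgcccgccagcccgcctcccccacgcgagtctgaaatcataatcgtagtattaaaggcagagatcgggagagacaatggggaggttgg
Brdt: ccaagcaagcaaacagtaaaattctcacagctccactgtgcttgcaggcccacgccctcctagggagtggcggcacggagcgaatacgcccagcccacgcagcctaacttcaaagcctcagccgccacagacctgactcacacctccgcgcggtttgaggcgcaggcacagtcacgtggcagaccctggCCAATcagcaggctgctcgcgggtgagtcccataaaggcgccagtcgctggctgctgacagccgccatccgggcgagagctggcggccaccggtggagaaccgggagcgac
Of all 32851 promoter windows in the table, 14.7% held GGAATG, 37.4% CCAAT and 13.6% TATAAA on either strand. A window was found for 123 of the 156 genes. GGAATG was present in 5 of the 46 windows of genes lower at the 8-cell stage and in 2 of the 17 windows of genes that were higher, and CCAAT in 23 and 8. These shares are a description of letters near the annotated start.

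The germline list had a median of -4.05 beside -0.51 over all genes. It held 3 genes, of which 2 fell and none rose, beside 35.9% and 13.5% of all genes. Besides Brdt, this was Dazl, an RNA-binding protein that regulates translation in germ cells. Its embryo levels ran from -3.24 through -2.19 to -0.97 at the 4-cell and from -14.63 through -5.64 to -3.11 at the 8-cell stage. The groups overlapped only through the highest 8-cell embryo, and the difference was -5.54 (SE 1.00, adjusted p = 5.81e-06). Because undetected cells entered it, the size depends on the detection limit, and with levels under -10 set to -10 it was -3.97. Dazl was detected in 9 of 9 4-cell and in 9 of 24 8-cell blastomeres. The detecting 8-cell blastomeres were unevenly spread, with 1 of 8, 5 of 8, 0 of 5 and 3 of 3 in the 4 embryos. The zona pellucida gene ZP3 was at -1.12 ± 0.09 (SD, n = 6) and -2.71 ± 0.76 (SD, n = 7), and its groups did not overlap. It missed the threshold in the fit of all stages (adjusted p = 0.352) but passed in the fit of these stages alone (adjusted p = 0.000949), where the standard error of the difference was 0.31 instead of 1.36.

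**Figure D2:**
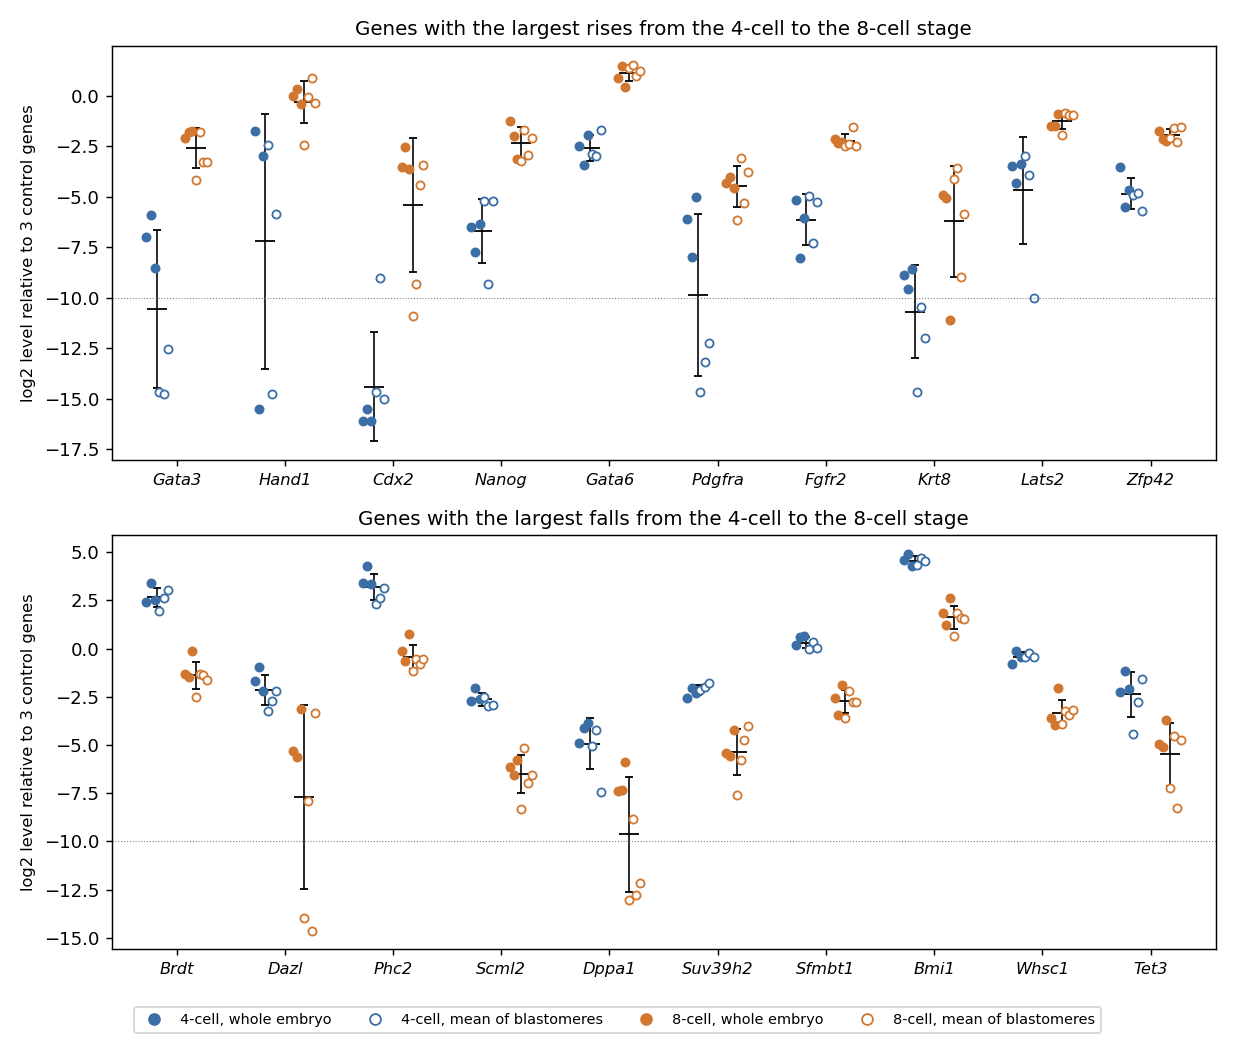
Level of the 10 genes with the largest rises (top) and falls (bottom) in each of the 13 embryos, as log2 relative to 3 control genes. Filled circles are whole embryos, open circles means of the blastomeres of 1 embryo, and bars the mean and SD of 6 4-cell or 7 8-cell embryos. Among the falls, Bmi1, Brdt, Phc2, Scml2, Suv39h2, Sfmbt1 and Whsc1 are separated completely. Among the rises, Gata3, Nanog, Gata6, Fgfr2, Lats2 and Zfp42 are. The 4-cell values of Hand1 and Gata3 are spread widely, down to the detection limit.

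In the PRC1 list, 5 of 9 genes fell and 1 rose, beside 35.9% and 13.5% of all genes. The median was -1.06, and it was -0.51 on the scale of the median gene and -0.11 in whole embryos without normalization. Phc2, a polyhomeotic subunit through which PRC1 complexes join, ran from 2.29 through 3.26 to 4.29 and then from -1.18 through -0.57 to 0.76. It had the lowest adjusted p of all genes, with a difference of -3.64 (SE 0.28, adjusted p = 5.02e-16) and no overlap. Scml2, an X-linked Polycomb-associated gene, fell by 3.86 (SE 1.35, adjusted p = 0.0151) without overlap, from -2.64 ± 0.35 (SD, n = 6) to -6.49 ± 1.00 (SD, n = 7). Pcgf1, a relative of Bmi1 in variant PRC1 complexes, fell by 1.57 (adjusted p = 0.000167), and Scmh1 fell by 1.06 (adjusted p = 0.00293). The catalytic subunit genes Ring1 and Rnf2 did not pass the test. Their differences were 0.27 (adjusted p = 0.866) and -0.54 (adjusted p = 0.0801). Cbx7, a subunit that reads methylated H3K27, was the member called higher. It was detected in 0 of 9 4-cell and 11 of 24 8-cell blastomeres, and its call was lost in the fit of these stages alone (adjusted p = 0.0943). The related gene Sfmbt1, of no list, encodes a protein with malignant brain tumour repeats. It fell by 3.04 (SE 0.38, adjusted p = 1.44e-09), from 0.30 ± 0.29 (SD, n = 6) to -2.75 ± 0.61 (SD, n = 7), without overlap.

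In the PRC2 list, 3 of 7 genes fell and 1 rose, beside 35.9% and 13.5% of all genes. The median was -0.53, and it was 0.02 on the scale of the median gene and 0.54 in whole embryos without normalization. Ezh1, the H3K27 methyltransferase that prevails in non-dividing cells, ran from 0.74 through 1.51 to 1.66 and then from -1.65 through -0.42 to 0.49. The groups did not overlap, and the difference was -1.95 (SE 0.24, adjusted p = 9.69e-10). Suz12, a core subunit, fell by 1.01 (adjusted p = 3.91e-05), but in whole embryos without normalization its difference was 0.00. Ezh2, the other H3K27 methyltransferase, fell by 0.53 (adjusted p = 0.0135), and its difference was 0.02 on the scale of the median gene and 0.54 in whole embryos without normalization. Eed, the third core subunit, was at 1.69 ± 0.19 (SD, n = 6) and 1.81 ± 0.22 (SD, n = 7) and did not pass the test (adjusted p = 0.651). Jarid2, which helps to recruit PRC2, rose. It ran from -4.94 through -1.97 to -1.71 at the 4-cell and from -0.94 through -0.49 to -0.38 at the 8-cell stage, without overlap, a difference of 1.79 (SE 0.31, adjusted p = 2.6e-06). The lowest 4-cell value came from an embryo in which Jarid2 was detected in 3 of 4 blastomeres. Its call was lost when every sample entered with the embryo as a random block (adjusted p = 0.0823).

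Among genes for H3K9 methylation and its HP1 readers, 3 of 9 fell and none rose, beside 35.9% and 13.5% of all genes. The list median was -0.39, and it was 0.16 on the scale of the median gene and 0.60 in whole embryos without normalization. Suv39h2, an enzyme that trimethylates H3K9, ran from -2.55 through -2.10 to -1.79 and then from -7.60 through -5.41 to -4.04. The 4-cell embryos were nearly alike and all lay above the 8-cell embryos, with a difference of -3.21 (SE 0.49, adjusted p = 1.85e-07). Its paralog Suv39h1 was at -4.09 ± 0.81 (SD, n = 6) and -5.72 ± 0.62 (SD, n = 7). It passed in the fit of the 2 stages (adjusted p = 0.00362) but not in that of all stages (adjusted p = 0.47). Setdb2, a further methyltransferase of this family, fell by 2.49 (SE 0.30, adjusted p = 9.65e-10) from a very even level of 0.70 ± 0.10 (SD, n = 6) to -1.78 ± 0.67 (SD, n = 7). Setdb1, which works with Trim28 at retroviral elements, fell by 1.01 (adjusted p = 0.00564), whereas Trim28 itself was at 3.07 ± 0.41 (SD, n = 6) and 2.81 ± 0.41 (SD, n = 7; adjusted p = 0.346). The HP1 genes Cbx1, Cbx3 and Cbx5 did not pass, with differences from -0.39 to -0.08. Ehmt2, the remaining member, was higher by 1.19 with overlapping ranges. It passed in the fit of the 2 stages (adjusted p = 0.00404) but not in that of all stages (adjusted p = 0.521).

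In the H3K36 list, 3 of 5 genes fell and none rose, beside falls of 35.9% of all genes. The median was -1.11, and it was -0.57 on the scale of the median gene and -0.10 in whole embryos without normalization. Whsc1, also called Nsd2, a dimethyltransferase of H3K36, ran from -0.79 through -0.46 to -0.13 and then from -3.95 through -3.46 to -2.03. The groups did not overlap, and the difference was -2.91 (SE 0.31, adjusted p = 3.04e-11), or 7.49-fold. Its relatives Nsd1 and Whsc1l1 fell by 1.18 (adjusted p = 0.000288) and by 0.79 (adjusted p = 0.0312). The difference of Whsc1l1 was 0.13 in whole embryos without normalization. Setd2, the enzyme that trimethylates H3K36, fell from 1.83 ± 0.30 (SD, n = 6) to 0.72 ± 0.39 (SD, n = 7) in the fit of the 2 stages (adjusted p = 0.000783), without overlap, but the call was absent in the fit of all stages (adjusted p = 0.526).

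In the H3K4 methyltransferase list, 3 of 8 genes fell and 1 rose, beside 35.9% and 13.5% of all genes. The median was -0.74, and it was 0.20 in whole embryos without normalization. Mll2, for which the authors give the alias Kmt2b, ran from 0.28 through 0.96 to 1.61 and then from -2.27 through -1.64 to -0.26. This was a fall of 2.48 (SE 0.26, adjusted p = 2.84e-11) without overlap. Setd1a, the catalytic subunit of a COMPASS complex, fell by 1.19 (adjusted p = 3.91e-05), also without overlap. Mll1 lay near the detection limit, being detected in 2 of 9 4-cell and 3 of 24 8-cell blastomeres. Its fall of 3.39 (adjusted p = 0.0294) was lost in the fit of the 2 stages (adjusted p = 0.168) and with levels under -10 set to -10 (adjusted p = 0.0575). Ash2l, a shared COMPASS subunit, was called higher by 0.65 (adjusted p = 0.0217), a call that was lost in the fit of the 2 stages (adjusted p = 0.0517). Of the H4K20 methyltransferases, Setd8, which adds the first methyl group, fell by 0.66 (adjusted p = 0.0342), and its difference was 0.04 in whole embryos without normalization and -0.11 on the scale of the median gene (adjusted p = 0.725). The call was lost without Ssu72 or Ube2e1 among the control genes (adjusted p = 0.139 and 0.14) and on leaving out any 1 of 8 embryos. Suv420h1 and Suv420h2 did not pass (adjusted p = 0.257 and 0.2), and the median of these 3 genes was -0.66, or 0.04 in whole embryos without normalization.

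The largest list, that of LSD and JmjC demethylases, held 24 genes, of which 11 fell and 1 rose. The 12 calls were 50.0% of the list, beside 49.4% of all genes. The median was -1.32, and it was -0.77 on the scale of the median gene and -0.20 in whole embryos without normalization. Kdm4b, which acts on H3K9 and H3K36, ran from -1.71 through -0.89 to -0.42 and then from -7.37 through -3.83 to -2.61. All 8-cell embryos were below the 4-cell embryos, and the difference was -3.09 (SE 0.45, adjusted p = 7.05e-08). Kdm1b, the H3K4 demethylase required for imprinting in the oocyte, ran from -0.63 through 0.35 to 1.04 and then from -2.76 through -1.84 to -0.06, a fall of 2.02 (SE 0.38, adjusted p = 1.16e-05). The ranges crossed only through the lowest 4-cell and the highest 8-cell embryo. Its relative Kdm1a was at 2.20 ± 0.21 (SD, n = 6) and 1.71 ± 0.29 (SD, n = 7), with an adjusted p of 0.123. Kdm1a passed in the fit of the 2 stages alone (adjusted p = 0.0244). Jhdm1d fell by 2.02, Kdm5b by 1.72 and Jmjd6 by 1.27, each without overlap. Kdm5a, a relative of Kdm5b that removes the same H3K4 methyl groups, was lower without overlap, at 0.79 ± 0.33 (SD, n = 6) and -0.87 ± 0.58 (SD, n = 7). It passed in the fit of the 2 stages (adjusted p = 0.000279) and not in that of all stages (adjusted p = 0.123). The H3K27 demethylases Kdm6a and Kdm6b did not pass, with differences of -0.29 and 0.13. Jmjd8 was the member called higher, but it was detected in 1 of 9 4-cell and 9 of 24 8-cell blastomeres, and the fit of the 2 stages did not call it (adjusted p = 0.0683). The largest negative difference of this list belonged to Y-linked Kdm5d and is described with the sex-linked genes.

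Of the PRDM genes, 4 of 7 fell and none rose, beside 35.9% and 13.5% of all genes. The median was -0.75, and it was 0.13 in whole embryos without normalization. Prdm4 ran from -0.71 through -0.25 to 0.36 and then from -3.59 through -1.75 to -0.98, without overlap, a difference of -1.65 (SE 0.29, adjusted p = 2.69e-06). Prdm15 fell by 2.20 (SE 0.71, adjusted p = 0.00929), but 1 8-cell embryo at -12.22 stood far from the other 6, which reached no lower than -5.79. Without that embryo the difference was -1.17 (adjusted p = 0.061), and the fit of the 2 stages did not call it (adjusted p = 0.106). Mecom, a zinc finger gene with a PR domain, was called lower (adjusted p = 1.72e-09) but lay near the detection limit. It was detected in 5 of 9 4-cell and 3 of 24 8-cell blastomeres, and in 3 4-cell and 0 8-cell whole embryos. In the SMYD and SETD list, 3 of 10 genes fell and 1 rose, beside 35.9% and 13.5% of all genes. Its median of -0.11 was positive on several scales, with 0.44 on that of the median gene and 0.22 without normalization. The SMYD paralogs moved in both directions. Smyd3 ran from -6.49 through -5.51 to -4.73 and then from -11.78 through -8.59 to -6.00, a fall of 3.77 (SE 0.62, adjusted p = 8.31e-07). Smyd2 ran from -11.36 through -7.88 to -4.10 and then from -5.01 through -4.38 to -3.62, a rise of 3.53 (SE 1.05, adjusted p = 0.00441). The ranges of both genes overlapped between the stages. Smyd2 was detected in 5 of 9 4-cell and in all 24 8-cell blastomeres, and Smyd3 in 9 of 9 and in 14 of 24. Smyd5 fell by 1.25 (adjusted p = 0.0171) without overlap. Smyd1, a methyltransferase known from heart and skeletal muscle, was detected in 0 of 9 4-cell and in 5 of 24 8-cell blastomeres (adjusted p = 0.0695).

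Among the genes for histone H3.3, its chaperones and remodellers, 3 of 9 fell and none rose, beside 35.9% and 13.5% of all genes. The median was -0.61, and it was 0.33 in whole embryos without normalization. Besides ASF1B these were DEK, a chromatin protein that binds H3.3, and H3f3a, 1 of the genes that encode H3.3. DEK ran from 2.72 through 3.07 to 3.48 and then from 0.87 through 1.85 to 2.33, without overlap, a difference of -1.40 (SE 0.21, adjusted p = 1.65e-07). H3f3a fell by 0.98 (adjusted p = 0.00214), and H3f3b was at 2.76 ± 0.41 (SD, n = 6) and 2.14 ± 0.31 (SD, n = 7; adjusted p = 0.758). H3f3b passed in the fit of the 2 stages alone (adjusted p = 0.027). The chaperones Hira, DAXX and Atrx did not pass, with differences of -0.16, -0.56 and 0.30. In the DNA methylation list, 1 of 6 genes fell and 1 rose, beside 35.9% and 13.5% of all genes, and the median was 0.33. Tet3, the dioxygenase that oxidizes 5-methylcytosine in the zygote, ran from -4.43 through -2.16 to -1.16 and then from -8.26 through -4.93 to -3.71. The ranges overlapped through 1 4-cell embryo, and the difference was -3.11 (SE 0.58, adjusted p = 9.19e-06). Its paralog Tet1 was at -3.79 ± 0.45 (SD, n = 6) and -3.50 ± 0.21 (SD, n = 7), with an adjusted p of 0.85. Dmap1, a protein that binds Dnmt1, rose by 1.66 (SE 0.23, adjusted p = 3.08e-08) without overlap, from -2.06 ± 0.27 (SD, n = 6) to -0.40 ± 0.33 (SD, n = 7). The de novo methyltransferases Dnmt3a and Dnmt3b did not pass, with differences of 0.96 (adjusted p = 0.0542) and 0.37 (adjusted p = 0.338). Dnmt3a did pass in the fit of the 2 stages (adjusted p = 0.0294). Of the genes for acetylation and deacetylation, 3 of 6 fell and none rose, beside 35.9% and 13.5% of all genes. The median was -0.52, and it was 0.03 on the scale of the median gene and 0.66 in whole embryos without normalization. Sirt1, an NAD-dependent deacetylase, fell by 0.87 (adjusted p = 0.0294) and Hdac4 fell by 1.61 (adjusted p = 0.0213), but in whole embryos without normalization their differences were 0.34 and 0.24. The call of Hdac4 was also lost in the fit of the 2 stages (adjusted p = 0.147).

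**Figure D3:**
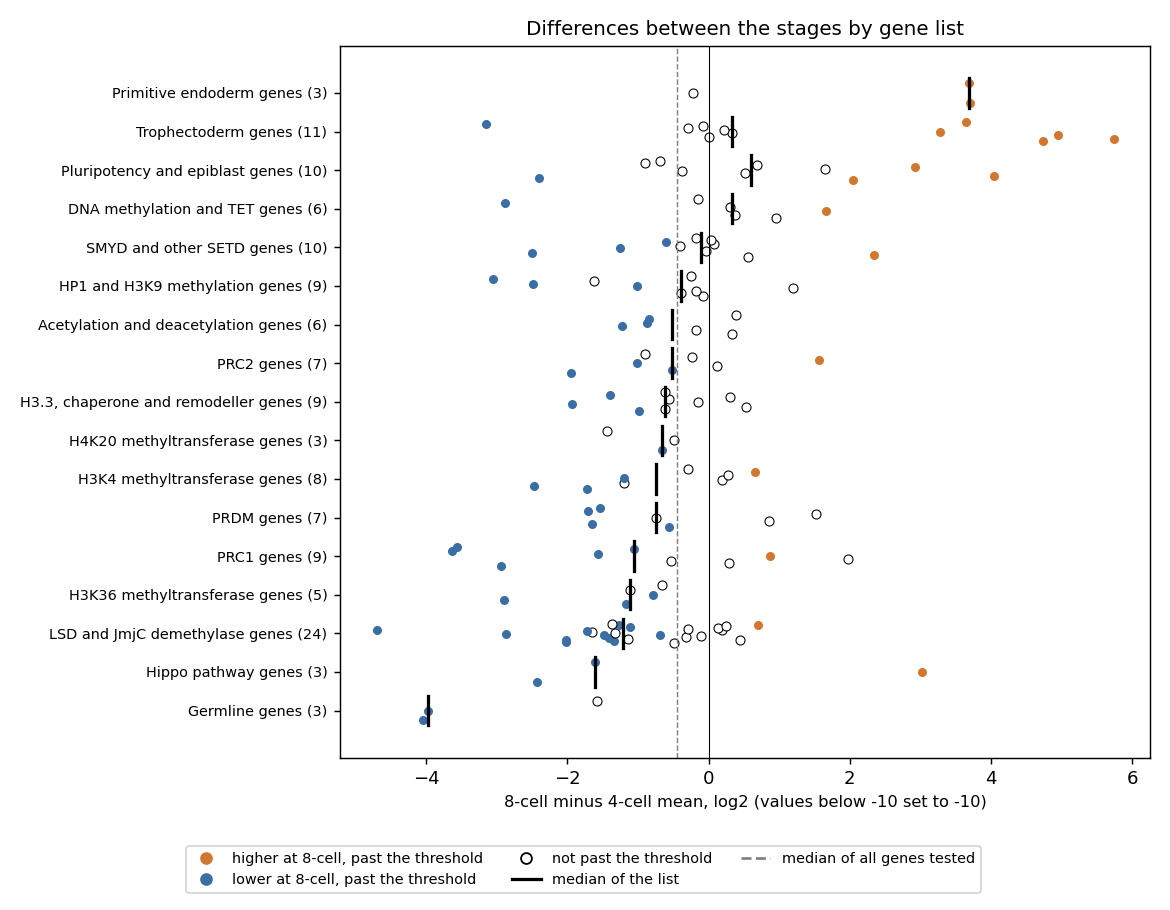
Difference of each gene of 17 lists between the stages, as the 8-cell minus the 4-cell mean on the log2 scale with levels under -10 set to -10, grouped by gene list with the number of genes in brackets. Filled circles passed the adjusted p of 0.05, black bars are list medians and the dashed line is the median of all 156 genes. The lists of chromatin genes lie mostly at or left of 0, and most of the largest rises lie in the primitive endoderm, trophectoderm and pluripotency lists.

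Of the 11 trophectoderm genes, 5 rose and 1 fell, beside 13.5% and 35.9% of all genes. The median was 0.89, or 0.34 with levels under -10 set to -10, beside -0.51 and -0.45 over all genes. Gata3, a zinc finger factor of the trophectoderm, was found in all 3 whole 4-cell embryos at -6.99, -5.89 and -8.51 but in only 1 of 9 4-cell blastomeres. At the 8-cell stage it was detected in all 27 samples, and the embryo levels ran from -4.17 through -2.08 to -1.75. The groups did not overlap, and the difference with levels under -10 set to -10 was 5.74 (adjusted p = 8.68e-10). Cdx2, the homeobox factor that specifies the trophectoderm, was undetected in the 3 whole 4-cell embryos and detected in 2 of 9 4-cell blastomeres, both from 1 embryo. At the 8-cell stage the whole embryos were at -3.54, -2.53 and -3.62, and the gene was detected in 4 of 8, 5 of 8, 5 of 5 and 3 of 3 blastomeres of the 4 dissociated embryos. Cells with and without detected Cdx2 thus occurred side by side in 2 8-cell embryos. The limited difference was 4.73 (adjusted p = 1.27e-06). The 1 4-cell embryo with Cdx2, at -9.00, lay above 2 of the 8-cell embryos.

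Hand1, a basic helix-loop-helix factor of the later placenta, was detected in 5 of 9 4-cell and all 24 8-cell blastomeres. The embryo levels ran from -15.49 through -4.41 to -1.74 and then from -2.42 through -0.07 to 0.87, and the groups overlapped. Its difference was 6.91, or 4.95 with levels under -10 set to -10 (adjusted p = 5.88e-05). Krt8, a keratin of simple epithelia, was detected in 4 of 9 and 22 of 24 blastomeres, and its ranges overlapped because 2 8-cell embryos, at -11.08 and -8.96, lay among the 4-cell embryos. The difference was 3.28 with levels under -10 set to -10 (adjusted p = 0.000169). Fgfr2, the FGF receptor of the trophectoderm and primitive endoderm, ran from -8.05 through -5.65 to -4.99 and then from -2.51 through -2.36 to -1.54. It rose by 3.89 (SE 0.79, adjusted p = 4.28e-05) without overlap, and the 8-cell embryos lay close together. Dppa1, a developmental pluripotency-associated gene counted on this list, fell by 4.71 (SE 1.00, adjusted p = 8.47e-05), or by 3.16 with levels under -10 set to -10, and was detected in 8 of 9 and 9 of 24 blastomeres. Tead4, the TEAD factor upstream of Cdx2, was at 0.07 ± 0.58 (SD, n = 6) and 0.40 ± 0.49 (SD, n = 7; adjusted p = 0.519). Id2 and Tspan8 did not pass (adjusted p = 0.768 and 0.894), Krt19 was detected in 1 whole 8-cell embryo alone, and Elf5 in none of the 39 samples.

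The windows of Cdx2 and Krt8 stand for the rising genes. Both lie on the minus strand, Cdx2 at chr5:147307200-147307499 and Krt8 at chr15:102004293-102004592, and capitals mark the same motifs. The Cdx2 window held 1 CCAAT, read on the other strand, and the Krt8 window 2 overlapping matches to TATAAA, 1 on each strand. Neither held GGAATG.
Cdx2: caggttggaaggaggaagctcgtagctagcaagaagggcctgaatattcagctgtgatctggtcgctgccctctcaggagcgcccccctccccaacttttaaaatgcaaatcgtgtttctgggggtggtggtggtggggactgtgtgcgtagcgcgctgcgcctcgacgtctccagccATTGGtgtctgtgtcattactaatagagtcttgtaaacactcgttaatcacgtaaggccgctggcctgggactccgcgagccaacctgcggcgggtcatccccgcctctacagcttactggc
Krt8: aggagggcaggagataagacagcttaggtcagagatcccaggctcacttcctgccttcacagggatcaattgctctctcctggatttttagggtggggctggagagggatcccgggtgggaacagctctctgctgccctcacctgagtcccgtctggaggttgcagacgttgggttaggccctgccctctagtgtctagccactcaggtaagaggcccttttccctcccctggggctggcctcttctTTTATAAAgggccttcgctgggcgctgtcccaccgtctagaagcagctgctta
The dinucleotide CG occurred 18 times in the Cdx2 and 6 times in the Krt8 window, and 23 times in each of the windows of Bmi1 and Brdt. Its median was 17 over the 17 windows of genes higher at the 8-cell stage, 27 over the 46 of genes that were lower and 26.5 over the 60 of genes that did not pass, beside 7 over all windows. TATAAA occurred in 2 of the 17, 1 of the 46 and 3 of the 60 windows.

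The 3 genes of the Hippo pathway list all passed, with 1 rise and 2 falls, beside 13.5% and 35.9% of all genes. Their median was -1.61. Tead4, counted on the trophectoderm list, did not pass. Lats2, the kinase that keeps Yap1 out of the nucleus, ran from -9.99 through -3.69 to -3.005 and then from -1.94 through -0.96 to -0.85. The groups did not overlap, and the rise was 3.45 (SE 0.77, adjusted p = 0.000167). The lowest 4-cell value came from an embryo with 2 of 4 blastomeres undetected. Yap1, the coactivator of Tead4, ran from -2.38 through -1.77 to -1.06 and then from -4.86 through -4.18 to -3.33, without overlap, a fall of 2.43 (SE 0.26, adjusted p = 3.04e-11). Nf2, a scaffold that activates the kinases, fell from 2.16 ± 0.24 (SD, n = 6) to 0.55 ± 0.36 (SD, n = 7), also without overlap (adjusted p = 9.64e-10).

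In the pluripotency and epiblast list, 3 of 10 genes rose and 1 fell, beside 13.5% and 35.9% of all genes. The median was 0.60. Nanog, the homeobox factor of the epiblast, ran from -9.31 through -6.41 to -5.20 and then from -3.24 through -2.09 to -1.28. Every 8-cell embryo was above every 4-cell embryo, and the rise was 4.38 (SE 0.97, adjusted p = 0.000151). Nanog was detected in 8 of 9 4-cell and all 24 8-cell blastomeres. Zfp42, the zinc finger factor also called Rex1, ran from -5.71 through -4.85 to -3.53 and then from -2.29 through -2.07 to -1.54, a rise of 2.92 (SE 1.08, adjusted p = 0.0217) without overlap. Pou5f1, which encodes Oct4, rose from 1.31 ± 0.52 (SD, n = 6) to 3.36 ± 0.22 (SD, n = 7), a difference of 2.05 (SE 0.29, adjusted p = 4.53e-08) without overlap. The SD of Pou5f1 among the cells of 1 8-cell embryo was 0.25 to 0.35. Sox2, the partner of Oct4, went the other way. It was detected in 7 of 9 4-cell but only 4 of 24 8-cell blastomeres, and in all 3 whole embryos of each stage. It fell by 4.03 (SE 1.02, adjusted p = 0.000795), or by 2.40 with levels under -10 set to -10. The ranges overlapped. The difference was -1.65 in whole and -5.61 in dissociated embryos, where undetected cells entered it (adjusted p of the interaction = 0.867). Esrrb was at -0.74 ± 0.81 (SD, n = 6) and 0.92 ± 0.25 (SD, n = 7) without overlap, which passed in the fit of the 2 stages (adjusted p = 0.000877) but not of all stages (adjusted p = 0.338). Fgf4, Klf2, Klf4, Pecam1 and Tbx3 did not pass, with differences from -1.13 to 0.69.

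Of the 3 primitive endoderm genes, 2 rose, beside 13.5% of all genes, and their median was 3.71. Gata6, the factor of the primitive endoderm, was detected in all 39 samples. It ran from -3.45 through -2.68 to -1.72 and then from 0.44 through 1.21 to 1.53, a rise of 3.71 (SE 0.94, adjusted p = 0.000787) without overlap. The receptor gene Pdgfra was detected in 2 of 9 4-cell and 22 of 24 8-cell blastomeres. Its ranges overlapped, because the whole 4-cell embryo at -5.01 lay above 2 8-cell embryos, and the difference with levels under -10 set to -10 was 3.69 (adjusted p = 0.000332). Sox17 was detected in 1 4-cell blastomere alone.

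The order of the stages around this step is given as a description. Over 11 of the 12 MII oocytes, the unfertilized eggs (1 was outside the sample list of the study), Bmi1 was at 5.81, and it was at 5.67 in 14 zygotes and 5.12 in 8 2-cell embryos. It was 4.56 in 4-cell, 1.62 in 8-cell, 1.30 in 16-cell and 0.70 in 32-cell embryos. The step from the 4-cell to the 8-cell stage was thus the widest of that course. Brdt was between 2.66 and 3.52 in every group up to the 4-cell stage, at -1.39 at the 8-cell stage, and near -5.7 in 16-cell and 32-cell embryos. ASF1B was at 1.40 in oocytes, 0.29 at the 4-cell stage and -1.64 at the 8-cell stage, its lowest mean, and was higher again at the 16-cell stage at -0.31. Pou5f1 had its lowest mean at the 4-cell stage (1.31), below the oocyte (3.34), and was at 5.40 at the 32-cell stage. Nanog was undetected in the oocytes, where the limit was -17.08 on average. It was at -6.71 in 4-cell, -2.33 in 8-cell and 1.26 in 16-cell embryos. The 16-cell mean rests on 2 embryos.

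**Figure D4:**
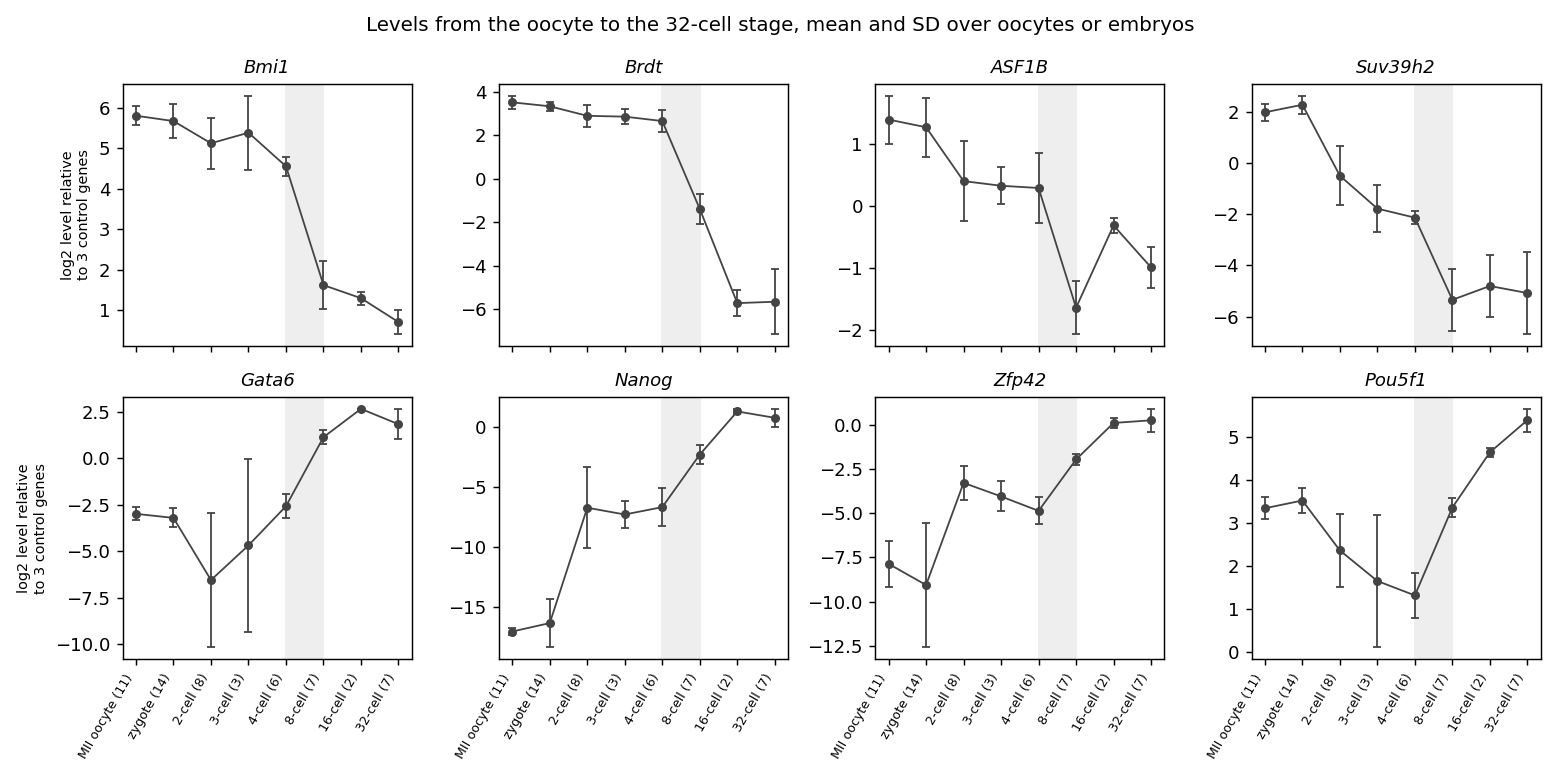
Levels of 4 falling and 4 rising genes from the MII oocyte to the 32-cell stage, as log2 relative to 3 control genes, with the number of oocytes or embryos in brackets. Points are means and bars the SD, and the grey band marks the step from the 4-cell to the 8-cell stage, in which Bmi1 and Brdt fell by 2.94 and by 4.05 and Gata6 and Nanog rose by 3.71 and 4.38.

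Whole embryos and dissociated embryos gave a view of the change per embryo and per cell, for which the values were left without normalization. A transcript that is only shared out by cleavage should keep its amount per whole embryo and lose 1 on the log2 scale per blastomere. Whether any gene followed this course was not tested. Over all 156 genes the median difference was 0.48 in whole embryos and -0.49 in blastomeres. Of the 56 genes called lower, 12 had a positive difference in whole embryos without normalization, among them Ezh2, Ctcf, Cdk1 and Suz12. Bmi1 fell by 1.74 per whole embryo (SE 0.14) and by 3.13 per blastomere (SE 0.21). Brdt fell by 2.81 per whole embryo (SE 0.18) and by 4.26 per blastomere (SE 0.35), and ASF1B fell by 1.20 (SE 0.24) and by 1.70 (SE 0.16). All 3 were thus lower in the whole embryo as well as in the cell. Whole 8-cell embryos hold more cells, and more cells and more RNA per cell cannot be told apart in them. DEK and Nsd1 had differences of -0.23 (SE 0.30) and -0.09 (SE 0.17) per whole embryo, and fell by 1.53 and by 1.28 per blastomere. Pou5f1 rose by 2.49 per whole embryo and by 2.53 per blastomere. In this comparison 30.1% of genes passed in whole embryos and 37.8% in blastomeres. Since each kind holds 3 or 4 embryos a stage, and the control Ct of whole embryos also differed between the stages, the part that sampling efficiency plays in these amounts was not tested.

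The stage difference itself was compared between whole and dissociated embryos by an interaction term on the normalized values. It passed for 2 of 156 genes (1.28%), with 8 at an unadjusted p below 0.05. Gata3 differed by 5.26 between whole embryos of the 2 stages and by 10.86 between dissociated ones (adjusted p of the interaction = 0.0277). Pdgfra differed by 2.06 and 8.77 (adjusted p = 0.0277). Both transcripts were found in whole 4-cell embryos but rarely in 4-cell blastomeres, and with levels under -10 set to -10 no gene passed and 5 had an unadjusted p below 0.05. For Bmi1, Brdt and ASF1B the interaction had adjusted p-values of 0.963 each. Without normalization 4 genes passed and 48 had an unadjusted p below 0.05. Bmi1 was among the 4, with an interaction of 1.39 (adjusted p = 0.0446). Its differences there were -1.74 in whole and -3.13 in dissociated embryos. The median differences of all 156 genes were 0.48 and -0.49 in that setting. The interaction of Bmi1 without normalization thus includes a shift shared across the panel.

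The sex of the embryos moved with the stage. Y-linked Kdm5d, a demethylase gene of male embryos, was detected in 5 of 6 4-cell embryos but in 1 of 7 8-cell embryos. Xist, the RNA of the inactive X chromosome, was above 0.6 in 1 4-cell and 5 8-cell embryos, each without Kdm5d. In the 5 4-cell embryos with Kdm5d, Xist was undetected in 3 and at -8.48 and -11.57 in the others, and 1 whole 8-cell embryo had neither transcript. Kdm5d was called lower (difference -8.89, adjusted p = 0.00102) and Xist higher (8.71, adjusted p = 0.0142), and for these genes stage and the sex of the embryos cannot be told apart. X-linked Atrx, Kdm5c and Kdm6a did not pass, with differences of 0.30, 0.19 and -0.29, while X-linked Phf8 fell by 1.41 (adjusted p = 0.000426). X-linked Scml2, described with the PRC1 genes, also fell, without overlap. The difference of X-linked Suv39h1 was -1.62, which passed in the fit of the 2 stages (adjusted p = 0.00362) but not in that of all stages. With detection of Kdm5d as a covariate in the fit of the 2 stages, 58 genes were called, 49 of them among the 77. Bmi1 fell by 2.87 in that fit (adjusted p = 0.00028), Brdt by 3.86 (adjusted p = 0.00028) and ASF1B by 2.01 (adjusted p = 0.00247). Among the genes named by rule, Hand1, Lats2, Dazl, Tet3, Jarid2, Mll1, Setd8, Prdm4, Hdac4 and Hnrnpr, along with Xist, kept their direction but did not pass, with adjusted p-values from 0.0703 to 0.911. Of these, Mll1, Hdac4 and Xist had missed the threshold in the fit of the 2 stages without the covariate (adjusted p = 0.168, 0.147 and 0.0674). With 1 8-cell embryo in which Kdm5d was detected, stage and sex are separated only in part.

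**Figure D5:**
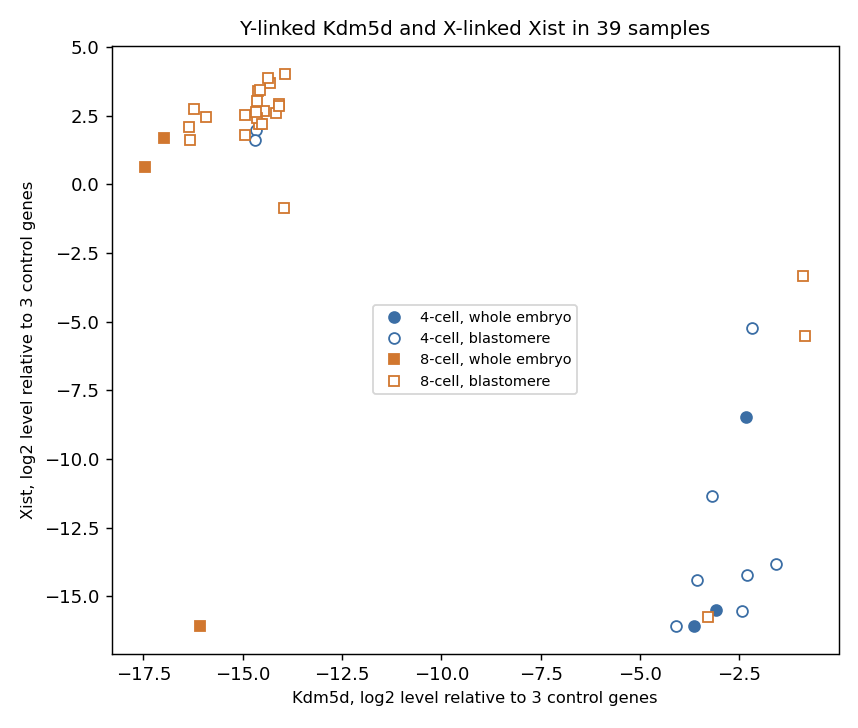
Level of Y-linked Kdm5d (horizontal axis) against X-linked Xist (vertical axis) in each of the 39 samples, as log2 relative to 3 control genes. Circles are 4-cell and squares 8-cell samples, filled for whole embryos and open for blastomeres; values near -14 to -17 are undetected. Most 8-cell samples lie at the upper left, with Xist and no Kdm5d, and most 4-cell samples at the lower right.

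The control genes were themselves not even between the stages. Relative to their common mean, Hnrnpr was at -0.48 ± 0.35 (SD, n = 6) and -1.12 ± 0.25 (SD, n = 7) and fell by 0.64 (adjusted p = 0.00102). Ssu72 and Ube2e1 had differences of 0.33 (adjusted p = 0.111) and 0.31 (adjusted p = 0.148). Since the 3 genes sum to 0 by construction, a fall of 1 requires a rise of the others. Leaving out Hnrnpr shifted the median of all genes from -0.51 to -0.83, and leaving out Ssu72 or Ube2e1 shifted it to -0.34 and -0.36. The differences of Bmi1, Brdt, ASF1B, Gata6, Nanog and Pou5f1 were larger than these shifts.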

How the data were processed

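RNA of oocytes, embryos and single blastomeres was assayed by qPCR with 192 primer pairs after 18 cycles of preamplification. The authors deposited a Ct score per assay and sample, with undetected assays at 30, and a flag for assays that passed their quality control (156 passed and 36 failed). They also deposited a normalized table on the log2 scale, which equals 30 minus Ct minus the mean over Gapdh, Hspa8 and Lmnb1. It was used as an alternative, since the control genes of the comparison were Hnrnpr, Ssu72 and Ube2e1. No read depth exists for such data.

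Levels were computed from the Ct scores, blastomeres and repeat samples of 1 embryo were averaged, and 168 of the 189 samples gave 58 oocytes and embryos. The 21 left out were stem cell RNA, late whole embryos or isolated parts, and samples outside the sample list of the study. Groups were compared with limma 3.58.1 in R 4.3.3 (lmFit and eBayes on all groups, Benjamini-Hochberg adjustment over 156 genes, threshold 0.05), and every adjusted p comes from limma. The fitting code was tested on simulated data. Tables and plots were made in Python 3.11.15 with pandas 2.3.3 and matplotlib 3.10.9.

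Genes were named by rule: Bmi1, Brdt and ASF1B; the 10 largest rises and 10 largest falls past the threshold, ranked with levels under -10 set to -10; up to 2 further members of each gene list with fewer than 2 so named; and the control genes. Xist and Kdm5d were not ranked, since embryos differ in sex. Pou5f1 and the other list members named were chosen after their values were seen. The members and lists were chosen with earlier results of these data known. Alternatives changed the samples, the averaging, the control genes, the scale, the treatment of undetected values and the block. Whole embryos or blastomeres without normalization, and detection of Kdm5d as a covariate, were chosen after seeing the data. RefSeq symbols matched 155 of 156 genes, and 35 of 42 named genes had a promoter window. Sequences were taken from RefSeq on GRCm38.p6. The primer sequences and proteins were not used here.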

Additional observations from a re-analysis of the deposited data

Results flagged for a closer look

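Embryo values that stood apart from the others of their stage by Dixon's criterion were found in 12 of 90 groups tested, and chance flags about 1 in 20 groups. Among 4-cell embryos, the dissociated embryo 6 was lowest for Lats2 (-9.99, nearest -4.33), Dppa1 (-7.44, nearest -5.07) and Jarid2 (-4.94, nearest -2.13). The dissociated 4-cell embryo 5 was highest for Cdx2 (-9.00, nearest -14.67), and the whole 4-cell embryo 2 was lowest for the control gene Ube2e1 (0.050, nearest 1.03). The dissociated 4-cell embryo 4 lacked Kdm5d (-14.67, nearest -3.65).

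Among 8-cell embryos, the dissociated embryo 4 was lowest for Hand1 (-2.42, nearest -0.39) and Kdm4b (-7.37, nearest -4.31). The whole embryo 3 was highest for Whsc1 (-2.03, nearest -3.16) and the dissociated embryo 6 for Fgfr2 (-1.54, nearest -2.13). The dissociated embryo 7 was lowest for Prdm15 (-12.22, nearest -5.79) and was the only one with Kdm5d (-1.68, nearest -14.40).

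The stage difference itself differed between whole and dissociated embryos for Gata3, by -5.60 (limma interaction, adjusted p = 0.0277), and for Pdgfra, by -6.71 (adjusted p = 0.0277). Both were undetected in most 4-cell blastomeres.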

How the results depend on the processing

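The number of genes past the threshold, 77, ranged from 69 to 79 when each embryo was left out in turn. It was 42 in whole embryos alone (38 of them among the 77) and 58 in dissociated embryos alone (48 among the 77). It was 42 without normalization (41 among the 77) and 47 in whole embryos without normalization, which was chosen after seeing the data. In whole and in dissociated embryos alone, 14 of 45 genes each lost significance. In dissociated embryos these included Hand1, Cdx2, Lats2, Dazl, Tet3, Jarid2 and Kdm4b (adjusted p = 0.061 to 0.099). The share of rises moved from 21 of 77 to 35 of 71 on the scale of the median gene, 18 of 42 without normalization and 23 of 47 in whole embryos without normalization. The interaction of stage and sample kind passed for 2 genes, for 4 without normalization and for 0 with levels under -10 set to -10. In these settings 8, 48 and 5 genes had an unadjusted p below 0.05. With the embryo number as a replicate block, 74 genes passed, 65 of them among the 77. The numbers did not pair the embryos, since correlations of same-numbered embryos ran from -0.20 to 0.27, and Hand1, Krt8, Mll1, Setd8, Hdac4 and Xist missed the threshold in that fit.

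Of 1439 recomputed differences of 45 genes under 32 settings, 1299 kept their direction and side of the threshold, 127 lost and 7 gained significance, and 6 reversed. In whole embryos without normalization Setd8 was at 0.038, Hdac4 at 0.24, Sirt1 at 0.34 and Hnrnpr at 0.31. Ube2e1 was at -0.012 without Hnrnpr among the control genes, and Kdm5d at 0.048 with its own detection as covariate. The cause of the other reversals was not tested. When 1 embryo was left out, only Mll1, Setd8, Hdac4, Sirt1 and Prdm15 lost and Ssu72 gained significance. Setd8 lost it without 4-cell embryos 2, 3 or 5 or 8-cell embryos 1, 2, 3, 4 or 7 (adjusted p = 0.0519 to 0.103). Leaving out 4-cell embryo 2, for example, gave -2.66 for Mll1 (adjusted p = 0.107), -0.54 for Setd8 (0.103), -1.33 for Hdac4 (0.0709) and 0.45 for Ssu72 (0.0368). Sirt1 was at -0.77 (0.0728) without 4-cell embryo 5, and Hdac4 at -0.97 (0.127) without 8-cell embryo 4. The ranges over embryos left out were -3.10 to -2.78 for Bmi1, -4.27 to -3.87 for Brdt and -2.05 to -1.73 for ASF1B. The detection limit bounds every difference in which a stage was mostly undetected.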

Other observations

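Of the 23 genes in no list, 4 were called higher and 7 lower at the 8-cell stage, beside 13.5% and 35.9% of all genes. Dicer1, the nuclease that cuts small RNAs, ran from 1.88 through 2.11 to 2.34 in 4-cell and from -0.96 through -0.11 to 0.84 in 8-cell embryos, a fall of 2.21 (SE 0.22, adjusted p = 5.54e-12). Its groups did not overlap. Clock, a circadian transcription factor, fell by 2.63 (SE 0.36, adjusted p = 1.27e-08), and Mapk3, the kinase ERK1, fell by 1.11 (adjusted p = 0.0114), each without overlap. Ctcf, the insulator protein, fell by 0.97 (adjusted p = 0.000167) with overlapping groups.

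Lrpap1, a chaperone of lipoprotein receptors, ran from -3.09 through -1.997 to -1.55 and then from -0.02 through 0.53 to 1.096. It rose by 2.59 (SE 0.32, adjusted p = 1.62e-09) without overlap. Pax6, a homeobox factor of the eye and brain, rose by 2.28 (adjusted p = 0.0239), with overlapping groups and no call in the fit of the 2 stages (adjusted p = 0.144). These genes were named after their values were seen.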
